A study of Mus musculus with 16 samples.

Results

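The expression of 10 macrophage genes (C1qa, C1qb, C1qc, Csf1r, Cx3cr1, Adgre1, Itgax, Cd68, Lyz2 and Fcer1g) was followed in RNA from EpCAM+ cells of the mouse distal colon. The genes were picked by symbol from 22396 symbols listed for each of 16 mice, and all 10 were found. EpCAM is a surface protein of epithelial cells, and cells carrying it were sorted by FACS from Liberase- and DNase-digested mucosa. Each library is 1 mouse. The 4 groups were set by treatment and genotype: water with Tnfr2-f/f (control, n = 4), water with Vil1::Cre;Tnfr2-f/f (labelled knockout, n = 5), dextran sulfate sodium (DSS) with control genotype (n = 3) and DSS with labelled knockout (n = 4). All mice carried floxed Tnfr2 alleles, and in the labelled knockouts Cre was driven by the villin promoter, which is active in the intestinal epithelium and not in macrophages. DSS in drinking water injures the colonic epithelium. The labels give 3% DSS for 6 days and dissection at day 12. The study's text gives a higher concentration and places the uninjured mice at d 0. It also says that the DSS cells came from injured stretches of the colon, so region and treatment cannot be told apart. Ages are not given in the labels. In the water-treated group, 4 males shared cage a and 5 females shared cage b, so that cage and sex are 1 split. The 7 DSS-treated mice were females from 2 other cages, so treatment and cage cannot be told apart.

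Macrophages of the colonic lamina propria lie directly beneath the epithelium, where they take up microbes and dead cells, and they are renewed from blood monocytes. They make C1q, the recognition protein that starts the classical complement pathway and that is built from the chains encoded by C1qa, C1qb and C1qc. Their survival depends on the receptor Csf1r, which binds the ligands encoded by Csf1 and Il34. Most of these genes are not known for expression in epithelial cells, although Lyz2, Cd68, Fcer1g and Itgax are shared with other myeloid cells.

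The 3 C1q genes lie side by side on the minus strand of chromosome 4 (GRCm38), C1qb at chr4:136880129-136886187, C1qc at chr4:136889804-136893065 and C1qa at chr4:136895917-136898803. Of the 10 genes, 7 had a promoter window in the RefSeq table (GRCm38.p6), and C1qa, Csf1r and Adgre1 had none. The 250 bases before the RefSeq start were searched on both strands for GAGGAA, the core letters of the PU box bound by PU.1, the myeloid factor encoded by Spi1. It occurred in 3 of 7 members' windows (42.9%) and in 23.3% of all 32851 windows. The windows of C1qb, C1qc and Cd68 held it, and those of Cx3cr1, Itgax, Lyz2 and Fcer1g did not hold these letters. The 3 windows that held it are shown, with the match in capitals (TTCCTC is the same motif on the other strand). Bases that GENCODE M21 places within a gene are left out, which shortens that of C1qc. A match is a string of letters and not evidence of binding.
C1qb, chr4:136886201-136886450, minus strand: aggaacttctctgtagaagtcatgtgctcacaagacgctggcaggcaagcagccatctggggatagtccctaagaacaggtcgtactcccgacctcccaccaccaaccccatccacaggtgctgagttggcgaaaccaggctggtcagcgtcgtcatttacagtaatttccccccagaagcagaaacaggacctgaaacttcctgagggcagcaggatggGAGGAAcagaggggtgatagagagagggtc
C1qc, chr4:136893066-136893164, minus strand: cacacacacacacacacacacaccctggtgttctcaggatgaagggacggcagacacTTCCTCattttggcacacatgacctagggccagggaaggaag
Cd68, chr11:69666171-69666420, minus strand: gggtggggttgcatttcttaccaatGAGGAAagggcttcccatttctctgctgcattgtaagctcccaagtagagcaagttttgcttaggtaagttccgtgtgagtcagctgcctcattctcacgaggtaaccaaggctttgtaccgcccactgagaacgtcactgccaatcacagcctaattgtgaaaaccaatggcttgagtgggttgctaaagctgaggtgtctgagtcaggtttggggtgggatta

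The libraries were first checked for the cell type they are labelled with. Expression was given as TPM, a level corrected for transcript length and for the size of the library, for principal transcripts only. Epithelial markers were high in every mouse: the 12 markers summed to 6867 to 9634 TPM in water and 6532 to 10750 TPM after DSS, and Epcam itself was between 566 and 1017 TPM. T cell markers were low (12 genes, 10.1 to 25.9 TPM summed in water and 0.448 to 4.18 after DSS). Stromal markers (7 genes) were present in both treatments, at 224 to 773 TPM in water and 114 to 523 TPM after DSS. B and plasma cell markers (8 genes) summed to 504 to 14420 TPM in water and 9.3 to 463 TPM after DSS. DSS control 3 stood apart in C1qa. DSS control 1 stood apart in neutrophil genes: it held 904 TPM of S100a8 and 935 TPM of S100a9, neutrophil calprotectin genes that were between 19.2 and 248 TPM in the other 6 DSS mice and at most 6.31 TPM in water. Tnfrsf1b, the gene of TNFR2, was 11.1 to 15.5 TPM in water controls, 9.23 to 14.8 TPM in water labelled knockouts, 13.3 to 22.2 TPM in DSS controls and 13.5 to 27.0 TPM in DSS labelled knockouts. Its groups overlapped in both treatments (adjusted p = 0.865 in water and 1.00 after DSS, limma). The listed TPM of this gene thus did not separate the labelled genotypes. The study flanked a single exon with loxP sites, while TPM is counted over the whole transcript. Whether this bears on the overlap was not tested, nor was the part of Tnfrsf1b RNA from other cells. By flow cytometry and qPCR, the study reported reduced TNFR2 in EpCAM+ cells of the knockout genotype.

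RNA of the macrophage genes was abundant in the libraries of uninjured mice and low in those of DSS-treated mice. Summed over the 10 genes it was 1191 to 2666 TPM (median 2010) in the 9 water mice and 23.8 to 78.6 TPM (median 37.1) in the 7 DSS mice. Since these are bulk samples, fewer macrophages and less RNA per macrophage cannot be told apart. The sort on EpCAM would remove macrophages, and how many cells or how much free RNA passed it was not tested. Jchain of plasma cells was also lower, with a ratio of 85.0. The tables of the 2 treatments were normalized separately, so no test was made between them. In place of a test, the values are given as TPM as deposited, the percentile of a gene among all symbols of its own mouse, and means after one rescaling of all 16 mice. The rescaling divided water libraries by 0.90 to 0.94 and DSS libraries by 1.13 to 1.24.

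**Figure D1:**
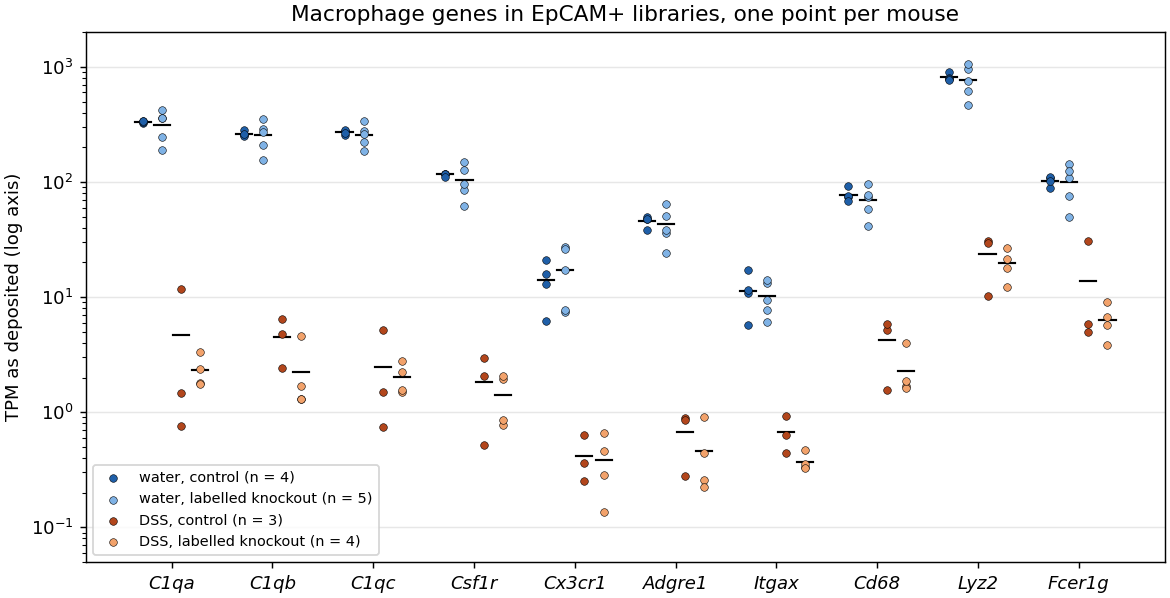
TPM of each macrophage gene on a log axis, 1 point per mouse, with the mean of each group as a line. For every gene the 9 water mice (blue) lie above the 7 DSS mice (orange), while the genotypes within a treatment overlap.

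C1qa encodes the A chain of C1q. The water controls had 336, 325, 334 and 340 TPM, and the water labelled knockouts had 245, 192, 359, 422 and 359 TPM. The DSS controls had 1.47, 0.761 and 11.7 TPM, and the DSS labelled knockouts had 1.79, 2.39, 3.31 and 1.76 TPM. No DSS mouse came near a water mouse, and the highest DSS value was in control 3. After rescaling, the mean was 352 ± 74.6 in water (SD, n = 9) and 2.75 ± 3.04 after DSS (SD, n = 7), a ratio of 128. Without DSS control 3 the ratio was 216.

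C1qb, the B chain, was 285, 256, 250 and 263 TPM in water controls and 208, 155, 289, 350 and 272 TPM in water labelled knockouts. In DSS mice the values were 4.74, 2.40 and 6.48 TPM for controls and 1.70, 1.292, 4.62 and 1.296 TPM for labelled knockouts. The treatments were again far apart, with a ratio of rescaled means of 104, and 123 without DSS control 3. C1qc, the C chain, was 276.5, 256, 281 and 264 TPM in water controls and 220.4, 185, 276, 339 and 263 TPM in water labelled knockouts. After DSS it was 0.741, 1.49 and 5.15 TPM in controls and 1.502, 1.57, 2.24 and 2.79 TPM in labelled knockouts. Its ratio of rescaled means was 154, and 194 without DSS control 3, so the order of C1qa and C1qc by this ratio turned on that mouse. Even the lowest water mouse exceeded the highest DSS mouse by 22.2-fold for C1qa, 32.5-fold for C1qb and 48.9-fold for C1qc on the rescaled values.

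Among the receptors, Csf1r was the most abundant. It was 118, 118.5, 118 and 111 TPM in water controls and 85.2, 62.5, 96.1, 149 and 127 TPM in water labelled knockouts. After DSS it was 2.97, 0.523 and 2.05 TPM in controls and 0.770, 1.96, 2.06 and 0.852 TPM in labelled knockouts. The treatments did not overlap, and the ratio of rescaled means was 88.3. Adgre1 encodes F4/80, a surface protein by which mouse macrophages are recognised; it was 23.9 to 64.8 TPM in water and 0.225 to 0.906 TPM after DSS, with a ratio of 103. Cx3cr1, the receptor of the chemokine made from Cx3cl1, was 6.20 to 27.0 TPM in water and 0.135 to 0.657 TPM after DSS, with a ratio of 50.5. Itgax, which encodes CD11c and is shared by macrophages and dendritic cells, was 5.68 to 17.0 TPM in water and 0.330 to 0.926 TPM after DSS, with a ratio of 27.5. These last 3 genes were under 1 TPM in every DSS mouse, so their ratios rest on very few reads there.

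Lyz2, which encodes the lysozyme of macrophages and other myeloid cells, had the highest level of the 10. It was 907, 796, 779 and 774 TPM in water controls and 619, 468, 968, 1060 and 760 TPM in water labelled knockouts. Its DSS values were 30.6, 10.2 and 29.6 TPM in controls and 17.8, 21.6, 26.8 and 12.4 TPM in labelled knockouts. The ratio of rescaled means was 48.0, with 32.8% of the 31-base windows of its transcript shared with the neighbouring Lyz1, so that reads may have been split between them. Cd68, a glycoprotein of late endosomes and lysosomes, was 74.5, 75.01, 92.9 and 68.1 TPM in water controls and 58.7, 41.7, 74.8, 96.9 and 76.6 TPM in water labelled knockouts. After DSS it was 5.21, 1.56 and 5.82 TPM in controls and 1.70, 1.63, 4.00 and 1.87 TPM in labelled knockouts. Here too every water mouse was above every DSS mouse, with a ratio of 30.4. Only 17.6% of the windows of the listed Cd68 transcript were absent from other transcripts of the gene, and at Csf1r and Adgre1 this was 1.25% and at most 3.96%, so the division among isoforms sets part of their listed TPM. The same limit holds for Fcer1g, with 9.16% of windows in no other transcript, and for Cx3cr1, with at most 16.7%. Itgax shared 12.7% of its windows with Itgad.

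Fcer1g, the signalling chain shared by several activating Fc receptors, had the smallest ratio of the 10 genes, although Itgax and Cx3cr1 had smaller log2 differences. It was 109, 110, 88.7 and 103 TPM in water controls and 75.2, 49.35, 108, 144 and 124.5 TPM in water labelled knockouts. After DSS it was 30.7, 5.84 and 4.95 TPM in controls and 6.75, 5.75, 9.10 and 3.81 TPM in labelled knockouts. The 30.7 TPM belonged to DSS control 1, the library with the highest S100a8 and S100a9, and the other 6 DSS mice were at 9.10 TPM or below. The ratio of rescaled means was 13.5 with that library and 21.6 without it. Neutrophils and mast cells also use Fcer1g. In the same library the neutrophil receptor gene Csf3r was 10.7 TPM, against 0.611 to 2.78 TPM in the other DSS mice. The part of neutrophil RNA in the Fcer1g level was not tested.

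Ranked within a mouse, the picture was the same. C1qa lay between percentiles 98.5 and 99.2 of all symbols in water and between 52.1 and 79.1 after DSS, and C1qb between 98.2 and 99.0 and between 53.5 and 70.6. Lyz2 lay between 99.1 and 99.7 in water and between 78.4 and 91.1 after DSS. Adgre1 lay between 89.9 and 95.7 in water and between 44.2 and 51.2 after DSS. All 10 genes had percentiles that were lower in every DSS mouse than in every water mouse. This pattern was held by 984 of 22396 symbols (4.39%) and, among genes whose mean reached 1 TPM, by 600 of 11247 (5.33%). The 10 genes, like the gene lists below, were chosen with earlier results of these data known. These shares are thus a background and not a test. The difference in mean log2(rescaled TPM + 1), DSS minus water, ran from -6.79 for C1qa to -3.08 for Itgax, with a median of -5.30 over the 10 genes against 0.00 over all symbols. In order of this difference, C1qa stood at position 38 from the largest fall and Itgax at position 253. The added 1 TPM shortens the differences of the low genes. The water-over-DSS ratio was kept within each genotype: it was 95.4 for C1qa in controls, DSS control 3 included, and 175 in labelled knockouts, and 9.38 and 20.3 for Fcer1g, DSS control 1 included. With female water mice alone the ratios were 143 for C1qa, 115 for C1qb, 165 for C1qc and 15.7 for Fcer1g. Divided by the summed epithelial markers of the same mouse, the ratios ran from 9.92 for Fcer1g to 120 for C1qc.

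The depth behind the values also differed. From the authors' mean log counts over the mice of a table, C1qa rested on a typical 771 estimated counts in water and 11.6 after DSS, Lyz2 on 2500 and 132, and Csf1r on 1100 and 25.8. After DSS no such mean was given for Adgre1 and Cx3cr1.

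Not all genes of macrophage biology were separated between the treatments as the 10 were. Of 25 other genes of macrophages and their activation, 17 were lower in every DSS mouse than in every water mouse by percentile. Over all symbols 4.39% held this pattern. The other 8 overlapped and none was higher throughout, and the median log2 difference of the 25 was -3.06. Mrc1, the mannose receptor of tissue macrophages, was 36.1 to 90.2 TPM in water and 0.841 to 3.26 TPM after DSS. Cd163, a scavenger receptor, was 2.28 to 20.6 TPM and at most 0.288 TPM. Spi1, Ms4a7, Mpeg1, Laptm5 and Il10 were also among the 17, with log2 differences between -4.50 and -3.06. The 8 that overlapped included genes used by other cells as well: Irf8 was 23.0 to 32.2 TPM in water and 25.1 to 35.7 TPM after DSS, and Mertk was 5.08 to 11.5 TPM and 6.80 to 9.39 TPM. Cd14 (log2 difference -1.16), Tlr2 (-0.97), Il1b (-2.202), Aif1 (-3.19), Ly6c2 (-5.47) and Tnf (1.13) made up the rest. An overlap can go with a large difference: the rescaled mean of Ly6c2 was 303 TPM in water and 9.29 TPM after DSS. Il1b was 70.7 to 212.5 TPM in water. It was 211 TPM in DSS control 1 and 10.8 to 36.1 TPM in the other DSS mice. Ctss, a lysosomal protease of antigen-presenting cells, was lower without overlap but remained at 92.9 to 118 TPM after DSS, from 233 to 340 TPM in water. Cd68, Cd14 and Laptm5 also stand on a list of fetal epithelial genes that the study used, so they are not specific to macrophages in that list.

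The ligands of the receptors, low for Csf1 and Il34, overlapped between the treatments. Csf1 was 0 to 5.23 TPM in water and 1.82 to 5.50 TPM after DSS, and Il34 was 0 to 6.28 TPM and 1.46 to 4.64 TPM, both with overlap. Cx3cl1, a chemokine of epithelium and endothelium, was 13.9 to 19.4 TPM in water and 12.1 to 21.2 TPM after DSS. Of the 16 ligands, partners and neighbouring genes, 5 were lower in every DSS mouse, namely Itgb2, Fcgr1, Fcgr2b, Syk and Lyz1. Over all symbols this pattern was held by 4.39%. The other 11 overlapped, and they include Tyrobp and Fcgr3, whose values at 0 are given below. Itgb2, the beta chain that pairs with the product of Itgax, was 15.7 to 37.7 TPM in water and at most 2.83 TPM after DSS. The proteases that act after C1q, encoded by C1ra and C1s1, overlapped, with log2 differences of -0.96 and -1.09, as did their inhibitor Serping1 at -1.55; these genes are also expressed by stromal cells, whose 7 markers had a median difference of -0.99. Tyrobp, an adaptor of myeloid receptors, and Fcgr3, a low-affinity IgG receptor, were listed at 0 in 4 and 1 of the 9 water mice whose other macrophage genes were high, so their listed values were not read as levels.

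**Figure D2:**
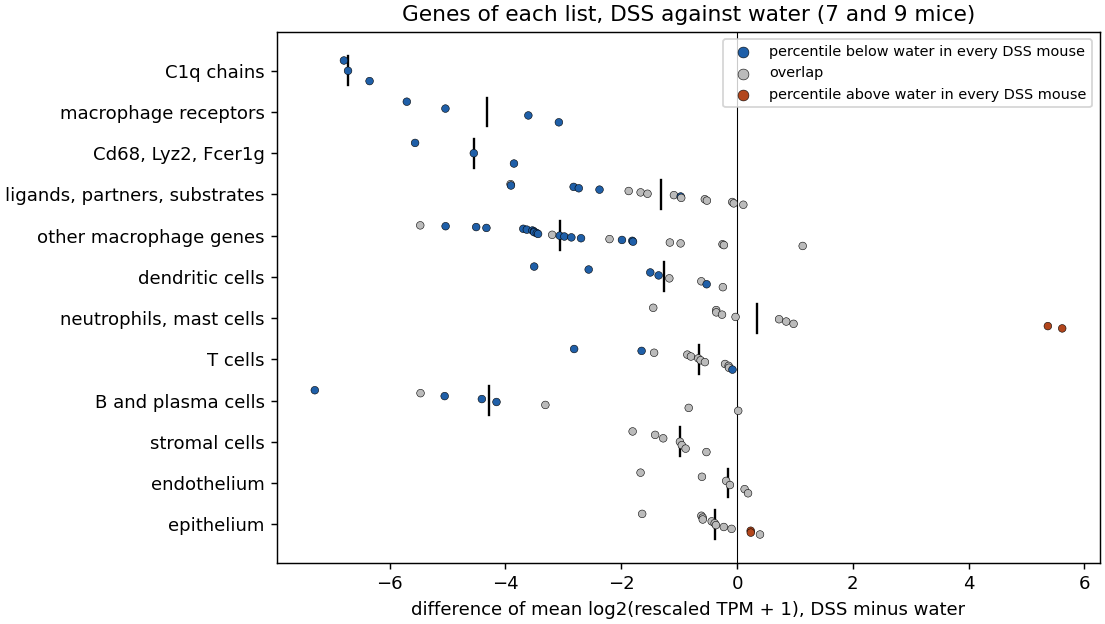
Difference of mean log2(rescaled TPM + 1), DSS (7 mice) minus water (9 mice), for each gene of 12 lists, with the median of a list as a bar. The 3 member lists lie between -6.79 and -3.08, epithelial genes lie between -1.64 and 0.40, and S100a8 and S100a9 lie above 5.

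The lists of other cell types give the setting. Dendritic cell genes were lower without overlap for 5 of 8 (median log2 difference -1.26), and their sum was 6.38 to 45.6 TPM in water and 0.148 to 1.51 TPM after DSS. Cd209a, one of the 5, also stands among the other macrophage genes, so the 2 lists are not independent. Its rescaled mean in water was 12.8 TPM, and 3 of the 8 genes averaged under 1 TPM in water. B and plasma cell genes were lower for 4 of 8 (median -4.28), with Jchain at 465 to 13800 TPM in water and 5.18 to 440.6 TPM after DSS. T cell genes were lower for 3 of 12 (median -0.65), among them Cd4, which macrophages and T cells can both carry. Over all symbols, 4.39% were lower without overlap. In water 7 of the 12 T cell genes averaged under 1 TPM, so the added 1 TPM shortens their differences. The median sum of the 12 genes was 18.2 TPM in water and 2.26 TPM after DSS. None of the 7 stromal and 6 endothelial genes was separated between treatments. Among neutrophil and mast cell genes, 2 of 10 were higher in every DSS mouse, S100a8 and S100a9, a pattern held by 5.33% of all symbols; calprotectin is also made by injured epithelium, and Csf3r (log2 difference -0.36) and Ly6g (-0.36) overlapped. Of the epithelial markers, Epcam and Cdh1 were higher without overlap (0.24 for both) and 10 of 12 overlapped.

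In the make-up of the macrophage signal, the shares of the C1q chains, Lyz2 and Fcer1g varied less in water than after DSS. The small shares of Cx3cr1 (0.311 to 1.25%) and Itgax (0.285 to 0.848%) varied in water too. The 3 C1q chains together took 41.2 to 44.6% of the summed TPM of the 10 genes in the 9 water mice and 8.85 to 34.4% in the 7 DSS mice. Fcer1g took 4.14 to 6.01% in water and 7.28 to 39.0% after DSS, so both shares were separated without overlap. C1qb, C1qc and Adgre1 also took lower shares in every DSS mouse, whereas the shares of C1qa, Csf1r, Cx3cr1, Itgax, Cd68 and Lyz2 overlapped. The overlap of C1qa came from DSS control 3, whose share of 17.3% equalled the highest in water, against 1.87 to 6.75% in the other DSS mice. Lyz2 took 36.7 to 43.3% in water and 38.9 to 58.1% after DSS, and was the largest component in every mouse except DSS control 1, where Fcer1g took 39.0%. That library was also the highest in S100a8 and S100a9. The ratio of C1qb to C1qa TPM was 0.749 to 0.850 in water, a coefficient of variation of 4.61%, and that of C1qc to C1qa was 0.735 to 0.968. After DSS these ratios ran from 0.541 to 3.22 and from 0.439 to 1.95, where the C1q genes rested on a typical 11.4 to 14.3 estimated counts.

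**Figure D3:**
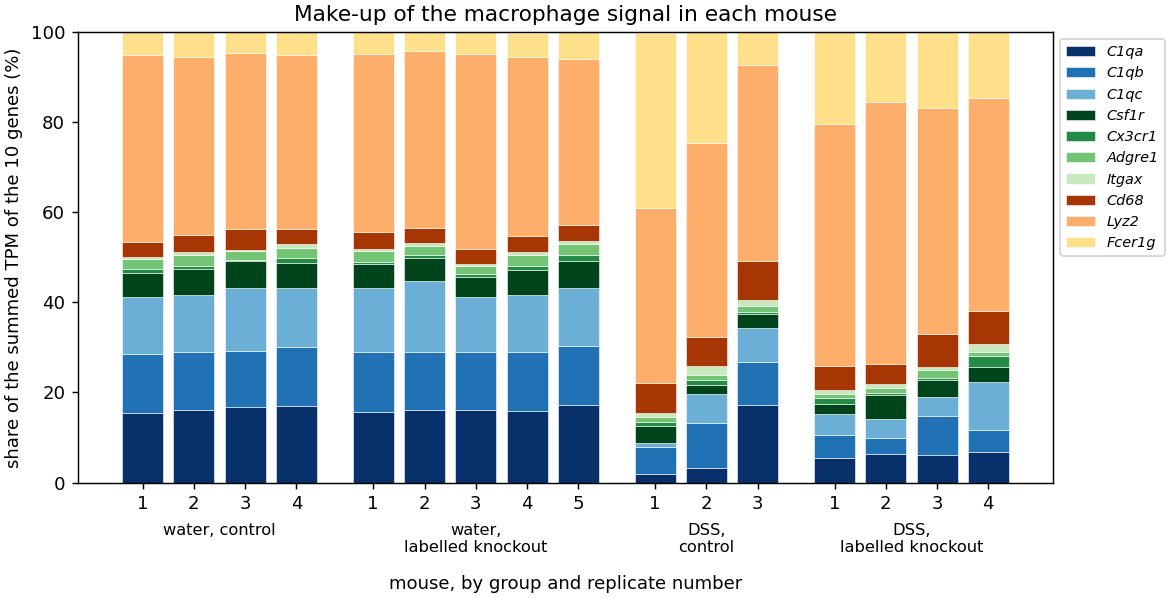
Share of each macrophage gene in the summed TPM of the 10 genes, 1 bar per mouse. The C1q chains (blue) fill 41.2 to 44.6% of each water bar and 8.85 to 34.4% of each DSS bar, and Fcer1g (yellow) is widest in DSS control 1 at 39.0%.

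TPM is a level per length, so the genes of a mouse were also put in order, and neighbours were compared by the exact two-sided sign-flip permutation test with Benjamini-Hochberg adjustment over 18 neighbour pairs. Neighbours were set by the mean levels of the same mice, so the p-values do not test an order fixed beforehand. In water the order was Lyz2, C1qa, C1qc, C1qb, Csf1r, Fcer1g, Cd68, Adgre1, Cx3cr1 and Itgax. Lyz2 exceeded C1qa by 1.29 ± 0.11 on the log2(TPM + 1) scale (SD, n = 9, exact permutation adjusted p = 0.0141), and C1qa exceeded C1qc by 0.29 ± 0.12 (exact permutation adjusted p = 0.0141), each in 9 of 9 mice. C1qc and C1qb did not differ beyond their spread (0.03 ± 0.11, exact permutation adjusted p = 0.511), nor did Csf1r and Fcer1g (0.13 ± 0.17, exact permutation adjusted p = 0.0895). After DSS the order was Lyz2, Fcer1g, C1qb, Cd68, C1qa, C1qc, Csf1r, Adgre1, Itgax and Cx3cr1. Only Csf1r over Adgre1 passed the adjusted threshold there, by 0.69 ± 0.29 in 7 of 7 mice (exact permutation adjusted p = 0.0352). Adgre1 was under 1 TPM in each of these mice, and the division among isoforms sets part of both levels. Lyz2 exceeded Fcer1g in 6 of 7 DSS mice, by 1.29 ± 0.76, and Fcer1g exceeded C1qb in 6 of 7, by 1.16 ± 0.85 (exact permutation adjusted p = 0.0562 for both).

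Across the water mice the 10 genes moved together. All 45 pairs had a positive Pearson correlation of log2(TPM + 1), with a median of 0.892 and a range of 0.346 to 0.981. Of these, 34 passed an exact permutation test with adjustment over the 90 pairs of both treatments, and 4 passed by Spearman's rho. The share of pairs of other genes that would pass was not computed for either treatment, so these counts have no background beside them. For C1qa and C1qb, r was 0.981 (exact permutation p = 0.000185, adjusted p = 0.00394) and rho was 0.933 (exact permutation p = 0.00075, adjusted p = 0.0225). The pairs of C1q chains had r of 0.966 to 0.981, and 0.856 to 0.926 without the 2 mice farthest from the median. Over all pairs the median fell to 0.635 without those 2 mice, with 45 of 45 pairs still positive and 15 of them under 0.5. Pairs outside the C1q chains that stayed high included C1qb with Lyz2 (0.923) and C1qb with Fcer1g (0.851). Labelled knockout 2 was the lowest for 8 of the 10 genes and among the 2 farthest mice for 9, and labelled knockout 4 was the highest for 9 and among the 2 farthest for 5. Itgax and Cx3cr1 followed the others least (median r of 0.63 and 0.712), and their highest r was with each other, 0.904. With the means of the cages removed the median was 0.852. A correlation within a cage was not computed, since each held under 6 mice.

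The same pairs were examined across the DSS mice, and the treatments were not tested against each other. Of 45 pairs 39 were positive, with a median r of 0.496 over 7 mice, and 3 passed the adjusted exact permutation test and none by rho. These were C1qb with Cd68 (r = 0.936, exact permutation adjusted p = 0.0296), Csf1r with Lyz2 (r = 0.927, exact permutation adjusted p = 0.00932) and Adgre1 with Lyz2 (r = 0.895, exact permutation adjusted p = 0.0314). C1qa and C1qb had r of 0.595 (exact permutation adjusted p = 0.201). Fcer1g and C1qc ran opposite, with r of -0.668. Without the 2 farthest mice the median was 0.241 and 32 of 45 pairs were under 0.5.

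The genes most like the macrophage signal were listed by their correlation with the mean z-score of the 10 genes, as a description over the mice of a treatment. In water these were Cd86, Laptm5, Ccl3, Pip4k2a, Clec4n, Lipa, Itgb5, Ccr1, Ctsc and Stab1, with r of 0.945 to 0.973 over 9 mice and 11036 genes. Cd86 is a costimulatory protein of antigen-presenting cells, Ccl3 a chemokine of myeloid cells, and Stab1 a scavenger receptor of macrophages. Of these 10, 7 were lower in every DSS mouse than in every water mouse, Cd86 with a log2 difference of -2.76, Clec4n with -3.87 and Stab1 with -4.37. Over all symbols 4.39% held this pattern. The 10 were picked for following the members in water, so the count is a description only. After DSS the 10 closest genes were Map7d1, Cry2, Hist1h4m, Gabarap, Oaz1, Gja4, Usp4, Adap2, Grina and Disp2, with r of 0.938 to 0.986 over 7 mice and 10892 genes. Among so many genes and so few mice, high r can arise by chance, and no test was made. The score weighs all members equally, including Cx3cr1, Adgre1 and Itgax, which were under 1 TPM in every DSS mouse. Map7d1 and Hist1h4m fell to 0 TPM in a DSS mouse. The 2 lists shared no gene, which was not read as a change between treatments.

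Genotype was compared within each treatment by limma on log2(TPM + 1), keeping genes whose mean reached 1 TPM. After DSS, 7 of the 10 genes passed this filter, and Cx3cr1, Adgre1 and Itgax did not. None of the 7 was called at an adjusted p under 0.05, nor had any an unadjusted p under 0.05, with 1 of 10899 genes called in all (0.00918%) and 289 at an unadjusted p under 0.05. All 7 had a negative estimate (median -0.23, against 0.02 over all genes), and all intervals held 0. The largest was that of C1qb, -0.82 (SE 0.41, 95% interval -1.76 to 0.13, adjusted p = 1.00, limma; exact permutation p = 0.114). Fcer1g was -0.62 (SE 0.58) and turned to 0.15 without DSS control 1, and C1qa was -0.23 (SE 0.64) and turned to 0.64 without DSS control 3. Leaving out 1 control also turned C1qc (0.52 without control 3), Csf1r (0.11 without control 1) and Lyz2 (0.10 without control 1 and 0.08 without control 3), while C1qb and Cd68 stayed negative. No exact permutation p below 0.0286 can be reached in this design.

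The 3 filtered genes were compared singly. Itgax was 0.637, 0.444 and 0.926 TPM in DSS controls and 0.333, 0.355, 0.330 and 0.470 TPM in DSS labelled knockouts, overlapping by 1 mouse (exact permutation p = 0.0571). Cx3cr1 and Adgre1 overlapped widely (exact permutation p = 0.8286 and 0.343). The 2 listed transcripts of Adgre1, however, divided by genotype after DSS: ENSMUST00000086763 was 0.895, 0.280 and 0.849 TPM in controls and 0 in the 4 labelled knockouts, and ENSMUST00000004850 was 0.258, 0.442, 0.906 and 0.225 TPM in labelled knockouts and at 0 or nearly 0 in controls. At these levels, and with 0.97% and 3.96% of their windows found in no other transcript, the assignment of reads to one or the other was not resolved. In water ENSMUST00000086763 carried most of the signal in every mouse of both genotypes, at 23.9 to 64.8 TPM.

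In water all 10 genes were tested and none was called, against 1 of 11046 genes (0.00905%) in all and 583 at an unadjusted p under 0.05, none of them members. The estimates were between -0.23 for Csf1r (95% interval -0.73 to 0.28, adjusted p = 0.876, limma) and 0.19 for Cx3cr1 (95% interval -0.86 to 1.24), with a median of -0.13. C1qa was 334 ± 6.26 TPM in controls (SD, n = 4) and 315 ± 94.2 TPM in labelled knockouts (SD, n = 5). The means were thus close, and the labelled knockouts spread on both sides of the controls. Among the other macrophage genes 0 of 25 were called in water and 0 of 16 tested after DSS.

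**Figure D4:**
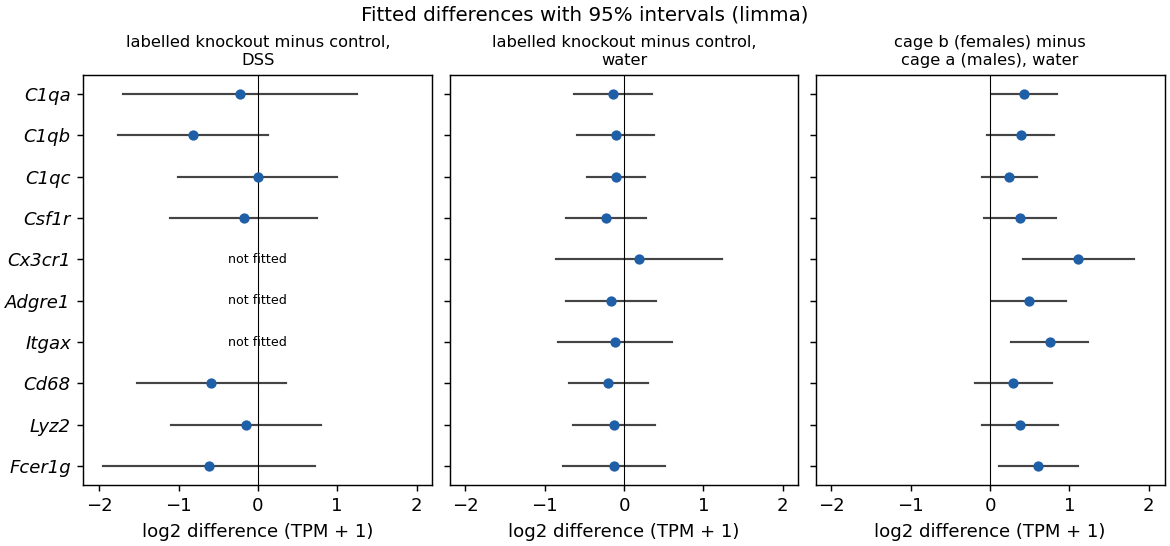
Fitted log2 differences with 95% intervals for genotype after DSS, genotype in water and cage in water. All genotype intervals hold 0, and in the cage comparison all 10 estimates are positive, from 0.24 for C1qc to 1.11 for Cx3cr1.

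The water mice were also compared by cage. With genotype in the model, all 10 genes were estimated higher in cage b (females) than in cage a (males), with a median log2 difference of 0.41 against 0.00 over all genes. None passed the adjusted threshold, which 4 of 11046 genes did (0.0362%), while 5 of the 10 had an unadjusted p under 0.05, as did 6.83% of all genes. Cx3cr1 was 9.30 ± 4.43 TPM in cage a (SD, n = 4) and 20.8 ± 5.93 TPM in cage b (SD, n = 5), a difference of 1.11 (SE 0.31, adjusted p = 0.669, limma; exact permutation p = 0.0317). Itgax differed by 0.75 (SE 0.21) and Fcer1g by 0.61 (SE 0.22), with adjusted p of 0.669 and 0.704 by limma. In other lists, 24 of 25 other macrophage genes, 7 of 7 stromal genes and 5 of 5 endothelial genes were estimated higher in cage b. The 12 of 12 epithelial markers were estimated lower (median -0.14), as were 49.7% of all genes tested. These counts are of genes measured in the same mice, and genes are not replicates. None of these list genes was called. The cage estimates leaned on labelled knockout 2: without it they moved from 0.43 to 0.26 for C1qa, from 0.39 to 0.20 for C1qb, from 0.24 to 0.11 for C1qc, from 0.38 to 0.19 for Csf1r and for Lyz2, from 0.49 to 0.30 for Adgre1, from 0.29 to 0.08 for Cd68 and from 0.61 to 0.37 for Fcer1g. Without labelled knockout 4, C1qc was 0.16 and Cd68 was 0.19, and without control 3 Cd68 was 0.44. Cage and sex cannot be told apart here, and the part of stromal or epithelial RNA in the difference was not tested. Each sex came from a single cage, so the mice of a cage are not replicates of cage or sex.

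The genotypes were then set side by side within each cage. In cage a, both labelled knockouts were below both controls for 8 of the 10 genes (C1qa, C1qb, C1qc, Csf1r, Adgre1, Cd68, Lyz2 and Fcer1g), a pattern held by 19.3% of all genes tested. In cage b, the 3 labelled knockouts were above both controls for C1qa and C1qb, as for 10.6% of all genes, and the other 8 genes overlapped. Itgax was lower in the labelled knockouts of both cages on average (log2 difference of -0.18 in cage a and -0.20 in cage b). For C1qa the means were 335 TPM in controls and 218 TPM in labelled knockouts of cage a, and 332 and 380 TPM in cage b. For Cd68 they were 83.7 and 50.2 TPM in cage a, and 71.6 and 82.8 TPM in cage b. The median log2 difference of labelled knockout minus control over the 10 genes was -0.60 in cage a and 0.19 in cage b, against -0.01 and 0.01 over all genes. The difference between the cages was 0.82 for C1qa (SE 0.23) and 0.94 for Cd68 (SE 0.30), and 7 of the 10 genes had an unadjusted p under 0.05. After adjustment none of 11046 genes was called for it (0%; 472 at an unadjusted p under 0.05), with an adjusted p of 0.985 for C1qa by limma. This comparison was made after the values had been seen, on 2 against 2 and 2 against 3 mice.

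**Figure D5:**
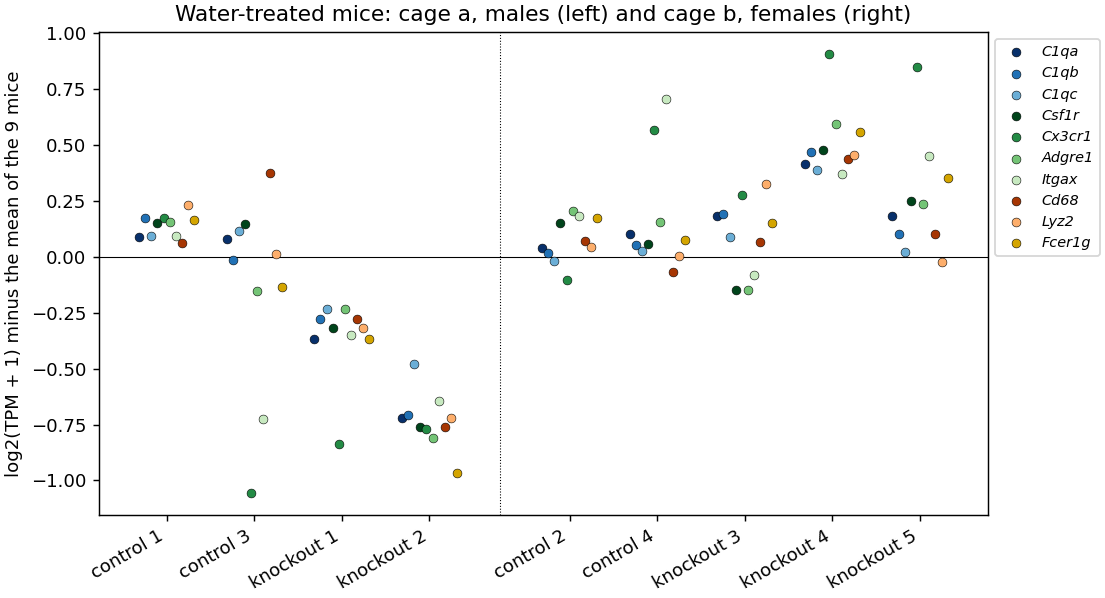
log2(TPM + 1) of each macrophage gene minus its mean over the 9 water mice, for cage a (males, left) and cage b (females, right). Labelled knockout 2 of cage a lies below 0 for every gene and labelled knockout 4 of cage b above 0 for every gene, with the controls of both cages closer to 0 except for Cx3cr1, Itgax and Cd68.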

How the data were processed

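Principal-transcript abundances of 16 mice were read from 2 tables, one per treatment. The authors prepared stranded polyA libraries of 75-base single reads, quantified them with kallisto, tested genotype with sleuth and deposited TPM values scaled within each table. The genome build per the labels is mm10. A further deposited column is the mean natural log of estimated counts over the mice of a table, used here for depth. Columns of genotype p-values, q-values and log2 ratios were not used. Each table had 29373 lines, of which 385 repeats were dropped. TPM was summed over the transcripts of a symbol. Because only principal isoforms are listed, totals per mouse were 487469 to 861109 TPM. All 28988 transcripts matched GENCODE M21 with the version ignored.

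Groups, replicates, cage and sex came from the labels. Genotype, and in water cage, were fitted with limma 3.58.1 (R 4.3.3) on log2(TPM + 1) with a variance trend, keeping genes whose mean reached 1 TPM and adjusting by Benjamini-Hochberg. For single genes an exact permutation test over mice (two-sided) was used. Treatments were described without a test, by percentile within a mouse and by median-of-ratios rescaling of all 16 mice. The fit was tested on simulated data. Same-numbered mice are different animals. Alternatives were another pseudocount, other filters and scalings, a single transcript per gene, cage or replicate terms, and leaving out each mouse.

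The 10 genes and all gene lists were chosen with earlier results of these data known. Genes named are the 10, Tnfrsf1b, their ligands and partners, other macrophage genes, cell type markers, and the 10 genes closest to the members in each table. Mice are the replicates, so p-values set a difference against the spread between mice. In the water mice each sex came from a single cage, so the cage p-values do not extend to other cages or to the sexes. The other steps ran in Python 3.11.15 with pandas 2.3.3, numpy 2.4.6, scipy 1.17.1 and, for plots, matplotlib 3.10.9.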

Additional observations from a re-analysis of the deposited data

Results flagged for a closer look

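Of 30 groups of 4 or 5 mice examined for a lone value, 5 held a mouse whose gap to the others was large for the range of its group, and chance flags about 1 in 20. C1qb was 4.62 TPM and Cd68 was 4.00 TPM in DSS labelled knockout 3, each above the other 3 mice of that group. Csf1r was 111 TPM in water control 4, below 3 nearly equal values, and Adgre1 was 38.3 TPM in water control 3. Lyz2 was 907 TPM in water control 1.

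The difference between labelled knockout and control in water pointed in opposite directions in the 2 cages for C1qa and C1qb, with every labelled knockout below every control in cage a and above in cage b. The genotype differences of the cages were 0.816 apart for C1qa and 0.787 apart for C1qb on the log2 scale, with an adjusted p of 0.985 for both by limma over all genes.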

How the results depend on the processing

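The DSS-against-water difference kept its direction for each of the 10 genes under every alternative. Its median over the genes moved from -5.30 to -6.07 with a pseudocount of 0.1 TPM, ran from -5.39 to -5.21 when 1 mouse was left out, and was -5.46 without both DSS libraries highest in Fcer1g or C1qa (chosen after seeing the data). All 10 percentiles stayed separated whichever mouse was left out. No member was called for genotype or cage in any alternative. The estimates changed sign in 12 of 100 member fits after DSS, in 12 of 170 in water and in 0 of 160 for cage, with none called.

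Over all genes the 1 call after DSS became 0 with a pseudocount of 0.1, without a filter or with a replicate block, and 0 to 3 when a mouse was left out. The 1 call in water became 0 with a pseudocount of 0.1, a minimum of 5 TPM or a replicate block, 4 without a filter, and 1 to 2 when a mouse was left out. The 4 cage calls ran from 3 to 7, with 7 without labelled knockout 3. Same-numbered mice did not deviate together (r from -0.197 to 0.0932 over genes), so the replicate block pairs nothing but numbers. The median r of member pairs fell from 0.892 to 0.635 in water and from 0.496 to 0.241 after DSS without the 2 farthest mice. Leaving out 1 mouse gave 0.757 to 0.924 in water and 0.366 to 0.564 after DSS, lowest without labelled knockout 2 and DSS control 3. Depth limits the DSS values, as 3 of the 10 genes were under 1 TPM in every mouse.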

Other observations

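The correlation of C1qa with genes of other cells was examined after seeing the data, over 6 relations. In water C1qa had r of -0.140 with Jchain (rho 0.200), a plasma cell gene (exact permutation p = 0.706, adjusted 0.960), 0.700 with Dcn (rho 0.233), a fibroblast gene (exact permutation p = 0.0421, adjusted 0.253), and -0.226 with Epcam (rho -0.367; exact permutation p = 0.566, adjusted 0.960). Without the 2 mice farthest from the median, the r with Dcn was -0.183 and that with Jchain 0.578. Jchain was highest, at 13800 TPM, in labelled knockout 2, the mouse with the lowest C1qa, and lowest, at 465 TPM, in control 3, in which C1qa was 334 TPM. After DSS none of the 3 relations passed (r of -0.0217 with Jchain, 0.157 with Dcn and 0.633 with Epcam; exact permutation p = 0.960, 0.812 and 0.125).

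Csf1r has a further listed transcript, ENSMUST00000115268, with 21.7% of its windows in no other transcript, and it was at most 6.30 TPM in water. Lyz1, the lysozyme gene beside Lyz2, was 10.6 to 44.9 TPM in water and 0.132 to 9.65 TPM after DSS, and the ratio of Lyz2 to Lyz1 varied from 17.8 to 99.6 in water, far more than that of Lyz2 to C1qa (2.12 to 2.70).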
